A study of Rattus norvegicus with 18 samples.

Results

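Muscle of DMD rats labelled p16-null was compared gene by gene with muscle of DMD rats that do not carry that label, both at 9 months of age. All genes that passed a filter on low counts were taken, which left 14801 of the 30560 genes in the table. The tissue was the tibialis anterior of the lower leg, in which fast fibres predominate, and RNA was sequenced from frozen sections of it. There were 3 DMD libraries and 6 p16-null DMD libraries, whose titles abbreviate the genotype as dKO. Wild-type (WT) rats of 9 months gave 3 more libraries, which entered the same fit and are given as the healthy background. Both dystrophic groups carry the DMD mutation, which in rats models Duchenne muscular dystrophy, the muscle disease caused by loss of dystrophin. The labels describe neither the mutation, nor how p16 was removed, nor the sex of the rats, and they name no treatment. Only the titles mark the libraries as replicates and no label ties them to individual animals. Each p-value therefore sets a difference against the spread between these libraries, which may be technical. The question is what loss of p16 alters in dystrophic muscle, and at this group size also how large a change could have gone undetected.

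The protein p16 is made from Cdkn2a and binds the kinases Cdk4 and Cdk6, which keeps the retinoblastoma protein Rb active and E2F target genes of the cell cycle silent. A cell held in this arrest for good is called senescent, and p16 is a common marker of that state. Senescent cells often release a mixture of cytokines, chemokines, proteases and growth factors known as the senescence-associated secretory phenotype (SASP). Il6, which signals through gp130 and Stat3, and Ccl2 and Ccl7, which draw monocytes through the receptor Ccr2, are classical members of that mixture. In dystrophic muscle, cycles of fibre damage and repair bring in macrophages and leave scar and fat behind.

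The libraries held 10.8 M to 21.99 M estimated counts, with means of 13.5 ± 2.68 M in DMD (SD, n = 3) and 13.6 ± 4.31 M in p16-null DMD (SD, n = 6). The total, the share of the 50 most abundant genes, the share of mitochondrial genes and 3 further measures per library did not separate the groups by a two-sided exact permutation test, with adjusted p from 0.743 to 0.857 over the 6 measures. With 84 arrangements of 3 against 6 libraries, the smallest p that this test can give is 0.0238. Markers of fast muscle fibres were abundant in all 9 dystrophic libraries. The skeletal actin gene Acta1 stood at 11781 to 17285 CPM (counts scaled to a common library size) in DMD and 10197 to 22899 CPM in p16-null DMD, and the fast myosin gene Myh4 at 11108 to 18454 and 8476 to 17074 CPM. DMD replicate 1 was the lowest of the 3 DMD libraries for many inflammatory genes, so estimates for the inflammatory genes described below are given with and without it. Leaving out the lowest DMD library enlarges a fall by construction. The adjusted p without DMD replicate 1 are therefore a description and not a second result.

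A pair of promoters is shown here because their genes, Il6 and Ccl7, had the lowest estimates among the 4 genes the comparison was built around (Cdkn2a, Il6, Ccl2 and Ccl7). A RefSeq entry in the table of promoters, build GRCr8, was found for 3 of the 4. Each sequence is the 250 bases before the annotated start of the gene, read 5′ to 3′ on the gene's strand. Capitals mark matches on either strand to 3 motifs. For AP-1 this was TGANTCA and for the cyclic AMP response element (CRE) TGACGTCA. For NF-kB it was GGGAN followed directly by TTTCC. N stands for any base, which makes the AP-1 letters looser than the strict motif. None of these matches overlap.
Il6, chr4:5894576-5894825, minus strand: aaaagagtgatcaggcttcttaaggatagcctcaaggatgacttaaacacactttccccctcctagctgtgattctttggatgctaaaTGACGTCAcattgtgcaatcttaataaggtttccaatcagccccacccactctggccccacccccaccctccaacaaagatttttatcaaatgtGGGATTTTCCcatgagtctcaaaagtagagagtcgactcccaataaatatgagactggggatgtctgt
Ccl7, chr10:67513845-67514094, plus strand: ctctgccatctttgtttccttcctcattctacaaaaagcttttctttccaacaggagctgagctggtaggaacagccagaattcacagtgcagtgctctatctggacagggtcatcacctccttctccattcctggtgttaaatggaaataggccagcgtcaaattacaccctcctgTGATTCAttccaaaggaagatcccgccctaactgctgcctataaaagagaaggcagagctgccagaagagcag
The Il6 window held the CRE letters at 162 to 155 bases before the start and the NF-kB letters at 68 to 59 bases before it. The Ccl7 window held the AP-1 letters at 73 to 67 bases before the start, with T as the base at N. The Cdkn2a window, not shown, held no match to the motifs. Of all 33469 promoter windows of this length, 6.34% held the AP-1 letters, 1.59% the CRE letters and 0.314% the NF-kB letters. A match is a description of these letters and not evidence of binding.

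Cdkn2a itself was transcribed in both dystrophic groups. The 3 DMD libraries held 11.5, 20.4 and 13.3 CPM, against 10.5 to 15.99 CPM, median 12.9, in p16-null DMD, so the groups overlapped. WT muscle held 0, 0.143 and 0.193 CPM. The log2 fold change of p16-null DMD over DMD was -0.21 ± 0.23 (SE), with a 95% interval from -0.70 to 0.28 and an adjusted p of 0.98 by edgeR's quasi-likelihood test. That interval excludes a 2-fold fall of the gene's RNA. The counts are per gene and pool the transcript of p16 with that of Arf, a second protein read from the same gene, and an edit can end a protein while its RNA remains. Cdkn2a therefore checks neither the label p16-null nor its absence, and the group name is used below as the labels give it. Dmd, the dystrophin gene, stood at 33.9, 46.7 and 36.6 CPM in DMD and 32.5 to 58.5 CPM in p16-null DMD, and 120.4 to 176 CPM in WT. Its log2 fold change was 0.21 ± 0.19 (adjusted p = 0.97 by edgeR), with an interval from -0.19 to 0.61.

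The estimates of Il6, Ccl2 and Ccl7 were below 0, with a wide spread among the DMD libraries: SDs of 2.10, 1.92 and 1.95 on the log2 scale. The DMD libraries, in order of replicate, held 1.76, 30.2 and 16.6 CPM of Il6, and the p16-null DMD libraries 0.487 to 3.38 CPM with a median of 1.27. DMD replicates 2 and 3 were above every p16-null DMD library, and DMD replicate 1 lay within their range. The log2 fold change was -3.41 ± 0.65 with a 95% interval from -4.81 to -2.02, and the adjusted p was 0.28 by edgeR. Without DMD replicate 1 it was -3.94 with an adjusted p of 0.0057 by edgeR. That library held the least Il6 of the DMD libraries, so leaving it out was bound to enlarge the fall.

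Ccl7 showed the same layout. It stood at 15.01, 193 and 118 CPM in DMD and at 9.35 to 34.8 CPM, median 22.3, in p16-null DMD, with DMD replicate 1 again inside the range of the p16-null DMD libraries. Its log2 fold change was -2.37 ± 0.54 (interval -3.52 to -1.21, adjusted p = 0.35 by edgeR), and -2.88 without that library (adjusted p = 0.0079). For Ccl2 the DMD libraries held 16.2, 188 and 136 CPM and the others 9.48 to 46.9 CPM, median 27.4, and its groups overlapped through DMD replicate 1 as well. Its log2 fold change was -2.04 ± 0.51 (interval -3.13 to -0.95, adjusted p = 0.43 by edgeR), and -2.55 without that library (adjusted p = 0.0079). WT muscle held 0 counts of Il6 in each library, 1.75 to 4.35 CPM of Ccl2 and 0.0967 to 2.28 CPM of Ccl7. The intervals of all 3 genes exclude 0 one gene at a time, whereas none of the 3 passed over the 14801 genes tested. The fit gives each gene 1 spread for all groups. For Il6, Ccl2 and Ccl7 the log2 SD was 2.10, 1.92 and 1.95 in DMD. In p16-null DMD it was 0.83, 0.78 and 0.70, so these intervals may be too narrow. In bulk muscle, fewer cells that make an RNA and less of it per cell cannot be told apart.

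**Figure D1:**
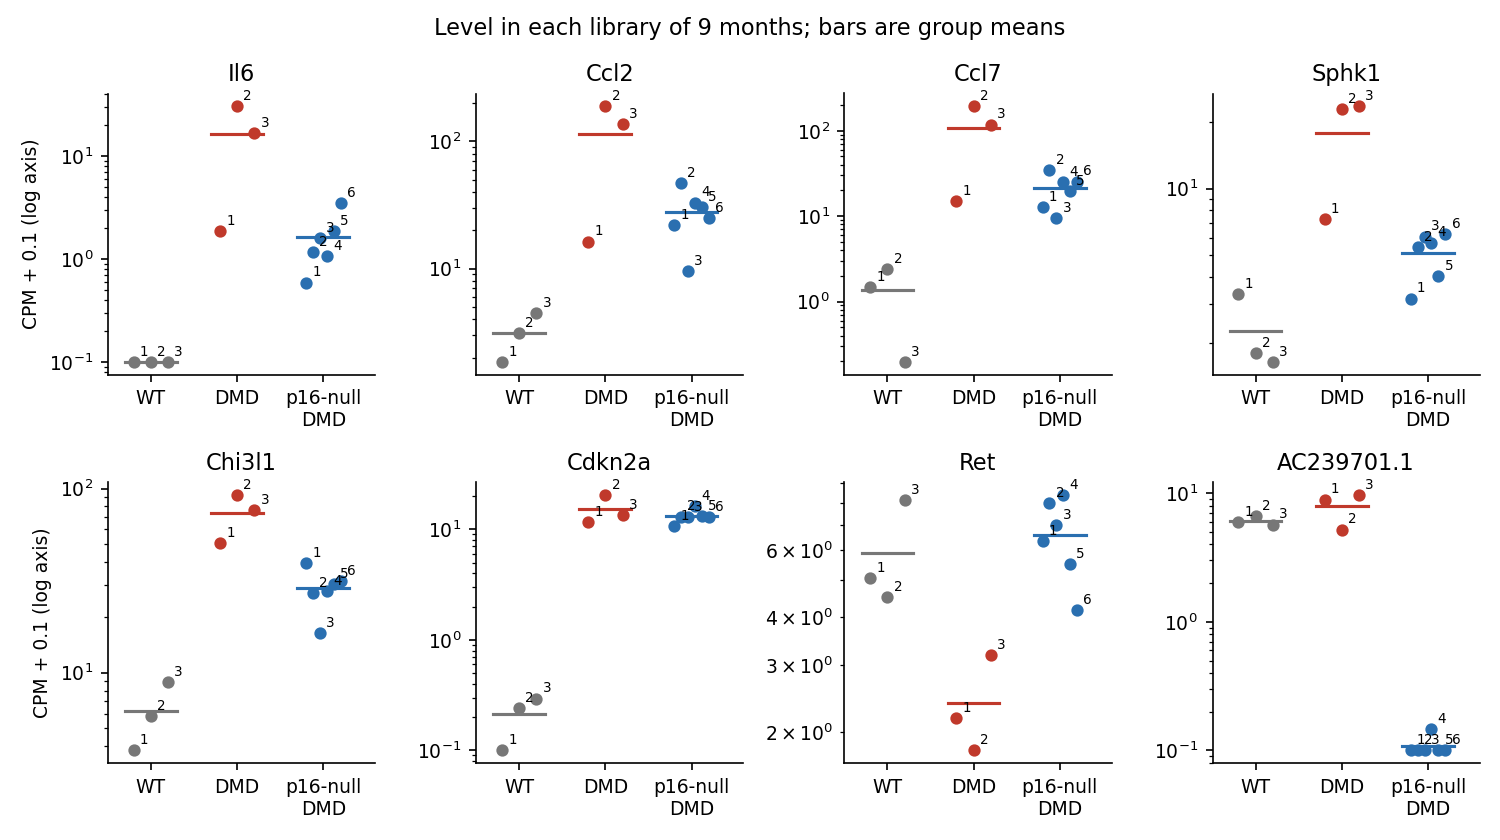
Level of 8 genes in each library of 9 months, in CPM plus 0.1 on a log axis that differs between panels, with replicate numbers beside the points and bars at the group means. For Il6, Ccl2 and Ccl7 the point of DMD replicate 1 (1.76, 16.2 and 15.01 CPM) lies among the p16-null DMD points, while Cdkn2a overlaps throughout and AC239701.1 has 1 count over the 6 p16-null DMD libraries.

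Over all genes, 1 of 14801 passed an adjusted p of 0.05 (0.00676%). It was AC239701.1 (ENSRNOG00000060437), an entry with a clone name and no described function. It had 115, 91 and 144 counts in the DMD libraries and 0, 0, 0, 1, 0 and 0 in the p16-null DMD libraries, so the groups were far apart. The DMD level was 682 times that of p16-null DMD, with a 95% counting interval from 122 to 27023 and an adjusted p of 4.7e-07 by edgeR. With the replicate number as a block the adjusted p was 0.064 by edgeR. In that fit p16-null DMD replicates 4, 5 and 6, which share their number with no other library, add nothing to the contrast. WT libraries of 9 months held 64, 46 and 58 counts, those of 18 months 45, 67 and 77, and those of 3 months 0, 72 and 33. One of the WT libraries of 3 months thus lacked the RNA too, at a total of 13.1 M counts. Whether the gene lies near Cdkn2a was not tested.

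After that gene the smallest adjusted p was 0.216, for Col6a4, a collagen VI chain gene. Col6a4 had 63 counts over the 3 DMD libraries and 3 over the 6 p16-null DMD libraries, a ratio of 40.9 (13.4 to 204). This interval, like those of AC239701.1 and Bmp7, covers counting error only and not the spread between libraries. It did not pass by edgeR and passed by limma-voom (adjusted p = 0.012). Bmp7, a growth factor of the BMP family, had 2 counts in DMD and 59 in p16-null DMD, a ratio of DMD to p16-null DMD of 0.0661 (0.00782 to 0.249, adjusted p = 0.48 by edgeR). Without adjustment, 764 genes had a p under 0.05, where 740 is 0.05 of the number of tests. Of these 462 were lower in p16-null DMD (3.12% of the genes tested) and 302 higher (2.04%).

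The named genes with the smallest p and a lower level in p16-null DMD were, beside Il6, Sphk1, Chi3l1, Ccdc92, Hp, Bcr, Rgs16 and Map3k8, and none of these 8 passed over all genes by edgeR (adjusted p from 0.28 to 0.31). By DESeq2 the 7 beside Il6 did pass, with adjusted p from 0.0032 for Sphk1 to 0.019 for Map3k8. Sphk1, a kinase that makes the signalling lipid sphingosine 1-phosphate, stood at 7.1999, 22.7 and 23.5 CPM in DMD and 3.08 to 6.12 CPM in p16-null DMD (-1.82 ± 0.33). Chi3l1, a secreted chitinase-like protein, stood at 50.6, 92.4 and 76.5 CPM against 16.2 to 39.1 CPM (-1.36 ± 0.25). For both the groups did not overlap. Hp, which encodes the haemoglobin carrier haptoglobin, stood at 15.3, 24.8 and 21.4 CPM against 5.36 to 12.9 CPM (-1.30 ± 0.26). Bcr stood at 15.5, 23.1 and 18.8 CPM against 9.66 to 12.6 CPM (-0.82 ± 0.16). These groups did not overlap either, nor did those of Ccdc92 (-0.94 ± 0.18). Rgs16, which shortens G protein signals, was at -1.75 ± 0.36, and Map3k8, a kinase upstream of ERK in inflammatory signalling, at -1.17 ± 0.24. In both, DMD replicate 1 lay inside the p16-null DMD range. Without that library 6 of the 7 passed by edgeR, with adjusted p from 0.0057 for Sphk1 and Rgs16 to 0.032 for Hp, and Ccdc92 did not (adjusted p = 0.069).

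On the higher side the 8 named genes with the smallest p were Ret, Amacr, Six4, Armt1, Nmrk2, Plaat1, Hbb-b1 and Sema6c, with adjusted p from 0.31 to 0.53 by edgeR. Ret, the receptor tyrosine kinase of GDNF-family ligands, stood at 2.07, 1.69 and 3.07 CPM in DMD and 4.08 to 8.29 CPM in p16-null DMD (1.51 ± 0.32), and WT held 4.42 to 8.03 CPM. It passed by DESeq2 (log2 fold change 1.52, adjusted p = 0.0073), the single gene of the 8 that did. Six4, a homeobox factor of muscle development, stood at 16.5, 17.1 and 13.6 CPM against 20.3 to 29.3 CPM (0.60 ± 0.14), with 71.0 to 84.6 CPM in WT. The p16-null DMD libraries did not overlap the DMD libraries in these genes. Amacr, a peroxisomal enzyme of branched-chain fatty acid breakdown, stood at 6.36, 6.24 and 5.48 CPM against 7.38 to 12.5 CPM (0.77 ± 0.18). Nmrk2, a kinase of the NAD salvage pathway in muscle, stood at 11.8, 7.76 and 10.2 CPM against 12.9 to 39.7 CPM (1.16 ± 0.30). These groups were apart too, while those of Hbb-b1, a beta globin gene (1.002 ± 0.27), and Sema6c, a semaphorin (0.99 ± 0.28), overlapped. These genes were picked by their p, so their separate groups carry no further weight. Over all genes the groups did not overlap in 130 cases with p16-null DMD lower (0.878%) and 174 with it higher (1.18%).

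Most genes were measured well enough to bound their change. The median log2 fold change was 0.02, 46.8% of the estimates were below 0, and 5% to 95% of the estimates spanned -0.59 to 0.52. The median SE was 0.22, which gives a median half-width of the 95% interval of 0.47, or 1.39-fold. The whole interval lay within 2-fold either way for 10672 genes (72.1%), within 1.5-fold for 6105 (41.2%), within 1.25-fold for 638 (4.31%) and within 4-fold for 13856 (93.6%). A pair of one-sided tests, adjusted over all genes, called 11163 genes equivalent within 2-fold (75.4%). Taken one side at a time, the interval excludes a fall of 2-fold or more for 82.2% of the genes and a rise of 2-fold or more for 83.0%. For a 4-fold fall or rise these shares were 96.5% and 97.0%. The estimate itself lay beyond 2-fold for 390 genes and beyond 4-fold for 33.

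The precision followed the level of the gene. The genes were ranked by level and cut into 5 equal parts. In the lowest, with means of 0.204 to 3.55 CPM, the median half-width was 1.22 and 8.31% of the intervals lay within 2-fold. The next, up to 10.98 CPM, had a half-width of 0.604 and 71.1% within 2-fold. From there it levelled off, at 0.420, 0.345 and 0.330 in the 3 upper ones, with 91.8%, 94.9% and 94.4% within 2-fold. A change of 2-fold in a gene under about 3.55 CPM could thus rarely be excluded at this depth and number of libraries. The filter itself was generous at its edge. Cdhr3 passed with 9 counts over the 9 dystrophic libraries, since the filter also reads the WT libraries, and Rps20, with 297 counts in 2 libraries, did not pass.

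**Figure D2:**
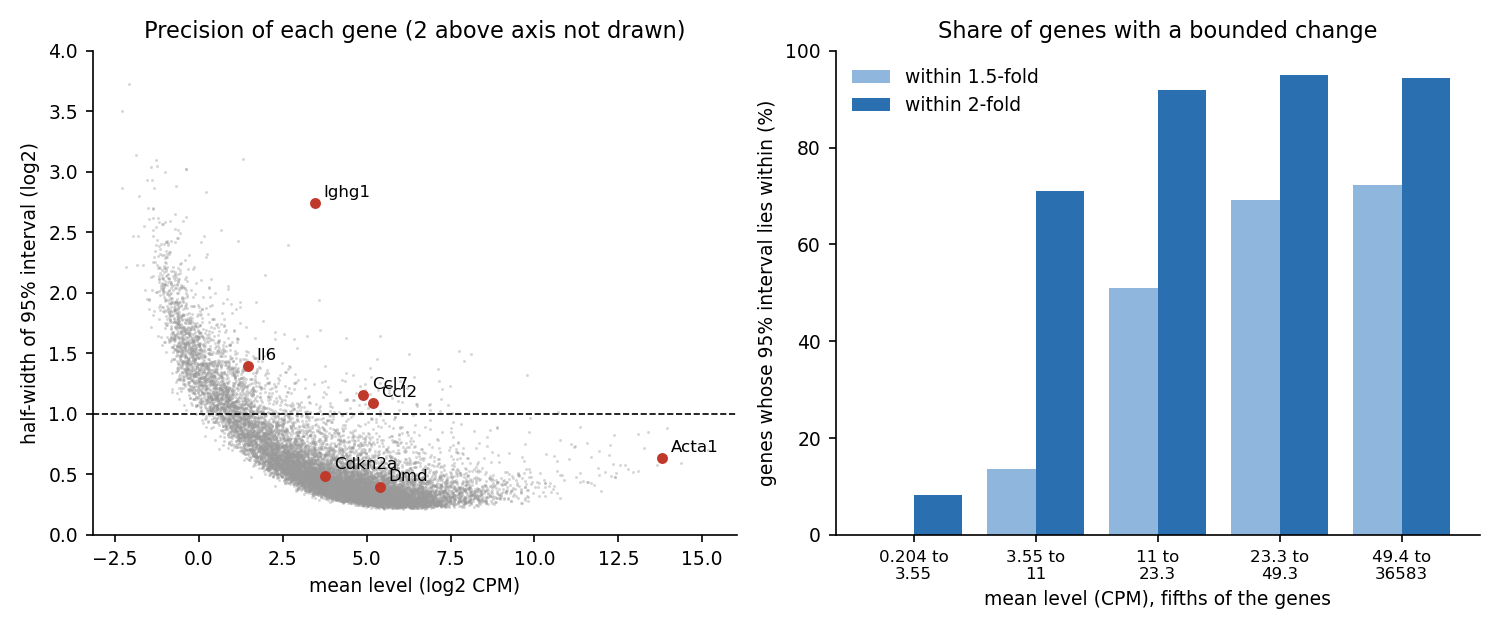
Left, half-width of the 95% interval of each gene's log2 fold change against its mean log2 CPM, with 7 genes in red and a dashed line at 2-fold. Right, share of genes in each of 5 equal parts by mean level whose interval lies within 1.5-fold or 2-fold: from 8.31% to 94.9% for 2-fold.

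The 5 genes with the smallest SE are shown for the precision that was reached. Eftud2, a GTPase of the spliceosome, had the smallest SE, with a log2 fold change of 0.12 ± 0.10 and an interval from -0.10 to 0.33. It stood at 42.9, 42.9 and 45.0 CPM in DMD and 45.8 to 48.6 CPM in p16-null DMD, groups that did not overlap although the adjusted p was 0.97 by edgeR, which does not let the spread of a gene fall far below that of similar genes. Uba2 (0.09 ± 0.10), of the SUMO-activating enzyme, Thrap3 (0.06 ± 0.10), Atp6v1e1 (0.14 ± 0.10), of the vesicular proton pump, and Tsg101 (0.02 ± 0.10), of the ESCRT machinery, were as precise. At the other end stood genes that varied many-fold within a group. Ighg1, an immunoglobulin heavy chain of plasma cells, ran from 0.787 to 15.5 CPM in DMD and from 1.22 to 211 CPM in p16-null DMD, and its interval spanned 0.32 to 5.80. The fat hormone gene Lep stood at 36.7, 37.3 and 38.0 CPM in DMD and at 1.14 to 79.1 CPM in p16-null DMD (-0.24 ± 0.77, interval -1.87 to 1.39). Its SD on the log2 scale was 0.02 and 2.30 in the groups. Ankef1 and Hnf4a, a nuclear receptor best known from liver, had SDs of 2.09 and 1.96 in p16-null DMD. Retnlg, a secreted protein of neutrophils, ran from 0.492 to 82.3 CPM in p16-null DMD and from 4.55 to 26.2 CPM in DMD. Chchd2, a mitochondrial protein gene, had 3.28 to 37.3 and 2.76 to 60.7 CPM.

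Libraries of 1 group differed from each other as much as from the other group. The median absolute difference between a pair of libraries over the 14801 genes was 0.293 to 0.377 on the log2 CPM scale within DMD (3 pairs, median 0.332) and 0.243 to 0.417 within p16-null DMD (15 pairs, median 0.321). Between a DMD and a p16-null DMD library it was 0.235 to 0.427 (18 pairs, median 0.315). The typical spread of a gene was also alike, with a median SD on the log2 scale of 0.291 in DMD and 0.309 in p16-null DMD, against 0.249 in WT. The biological coefficient of variation, fitted within each group alone, was 0.272 in DMD, 0.272 in p16-null DMD and 0.199 in WT. The share of genes beyond 2-fold of the mean of the other libraries of the same group was 9.98% in DMD replicate 1, 8.65% in replicate 2 and 6.41% in replicate 3, and 4.24% to 9.49% in the p16-null DMD libraries.

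**Figure D3:**
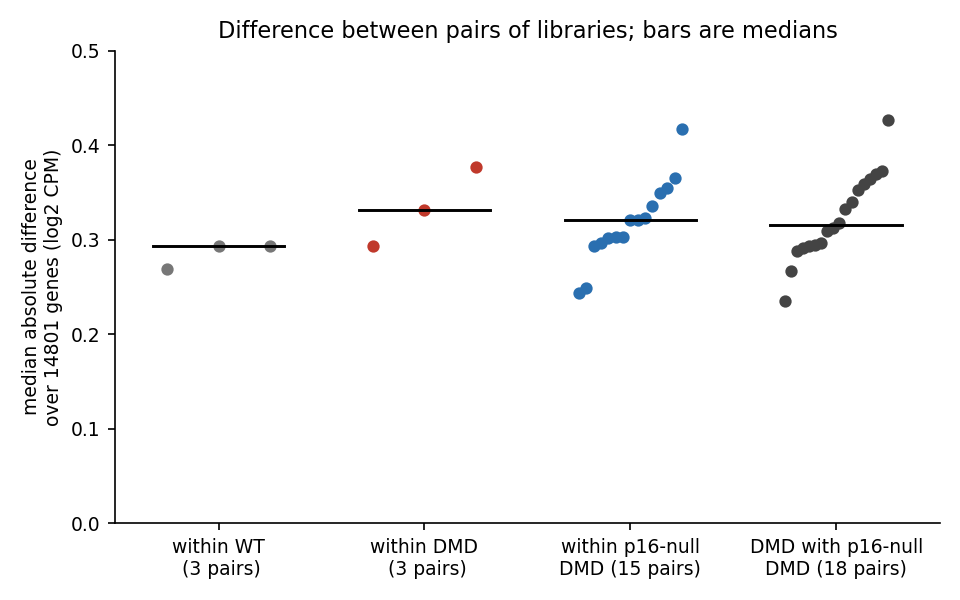
Median absolute difference over 14801 genes between each pair of libraries, on the log2 CPM scale, within the 3 groups of 9 months and between DMD and p16-null DMD, with bars at the medians. The 18 pairs between the groups (0.235 to 0.427) span about the range of the 15 pairs within p16-null DMD (0.243 to 0.417).

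A single library set how many genes passed. Without DMD replicate 1, 85 of 15064 genes had an adjusted p under 0.05 by edgeR, 80 lower in p16-null DMD (0.531%) and 5 higher (0.0332%), although only 2 DMD libraries remained. Leaving out DMD replicate 2 left 1 gene, DMD replicate 3 left 2, and each of the other libraries left 1 or 2. Of the 85 genes, AC239701.1 alone also passed without DMD replicate 2, and it alone without DMD replicate 3. The unused values of DMD replicate 1 can be set beside those 80 genes. They lay inside the range of the p16-null DMD libraries for 60 genes, above it for 14 and below it for 6, and 75.8% of all genes lay inside. On a log2 scale where 0 is the p16-null DMD mean and 1 the mean of DMD replicates 2 and 3, the median of the 80 genes was 0.0067, and 74 were under 0.5. With all libraries, 82 of the 85 genes had an unadjusted p under 0.05 and 1 an adjusted one. Fewer than 3 libraries in a group give a spread that rests on the other groups, so these 85 are a description of 2 DMD libraries and not a second result.

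Among those 80 genes were Il6, Ccl2 and Ccl7, and 3 others are shown as examples chosen after their values were seen. Ptx3, a secreted pattern recognition protein, had 17.6, 142 and 104 CPM in the DMD libraries by replicate. Nr4a3, an early response nuclear receptor, stood at 6.82, 63.2 and 49.1 CPM. Adamts4, a protease of cartilage-type proteoglycans, stood at 20.8, 70.5 and 77.3 CPM. In these 3 genes DMD replicate 1 was the lowest of the 3 DMD libraries, as it was for 78 of the 80. The 5 higher genes were Hbb-bs, Hbb-b1, Pcdh12, Abca9 and RGD1310587, the first 2 of them globin genes of red blood cells. Of the 80 genes, 56 had a promoter entry, and 3 of these (Il6, Nfkbiz and Zyx) held the NF-kB letters given above. That is 5.36% against 0.331% of all genes with an entry. The AP-1 letters were held by 12.5% against 6.99%, and the CRE letters by 3.57% against 1.78%. The genes were chosen by their values, and these shares were not tested.

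**Figure D4:**
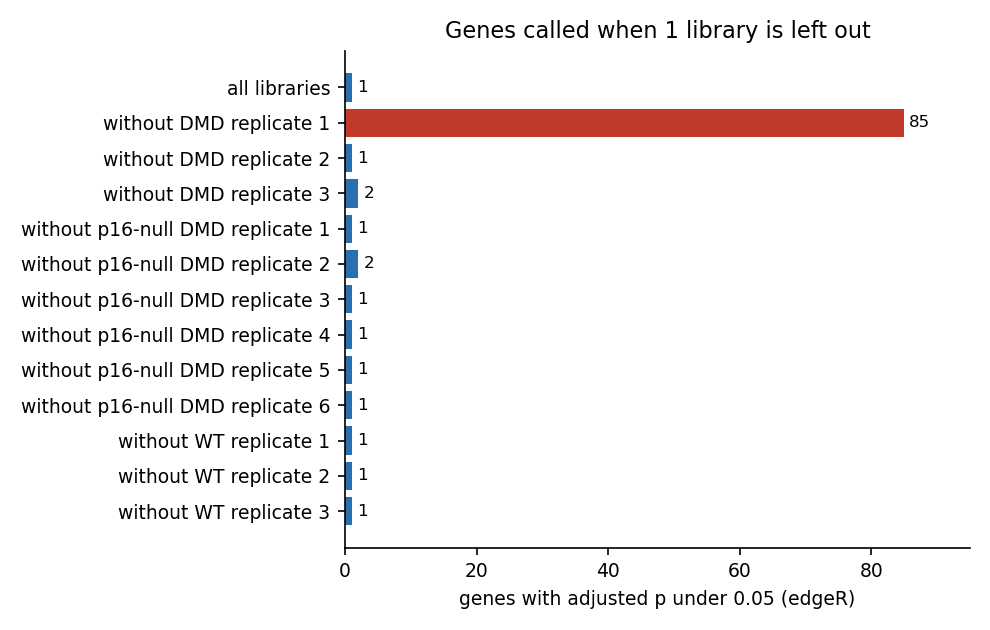
Number of genes with an adjusted p under 0.05 by edgeR when all 12 libraries of 9 months are used and when each is left out in turn. Leaving out DMD replicate 1, in red, gives 85 genes, and every other choice gives 1 or 2.

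None of the members of the 34 gene lists passed by edgeR, DESeq2 or limma-voom with all libraries, and by edgeR 1 of all 14801 genes did (0.00676%). Each list is therefore described by its counts and its median log2 fold change, followed in brackets by the range of that median when the DMD libraries are left out in turn. Over all genes the median was 0.02 (0.01 to 0.04), 3.12% were lower and 2.04% higher at an unadjusted p under 0.05, and 72.1% of the intervals lay within 2-fold. Of 19 tested genes of the p16, Rb and E2F axis, on which p16 acts, none had an unadjusted p under 0.05, and the median was 0.18 (0.08 to 0.14). The intervals of Cdk4, a kinase that p16 inhibits (-0.12 to 0.48), and Rb1, which encodes Rb (-0.17 to 0.38), lay within 2-fold, as did those of 12 of the 19. The factor genes E2f5 (-0.51 ± 0.28) and E2f3 (0.54 ± 0.33) and the inhibitor gene Cdkn2d (-0.42 ± 0.26) had the smallest p, from 0.086 to 0.13 before adjustment by edgeR. Among 16 tested neighbours of Cdkn2a on its chromosome, none had an unadjusted p under 0.05, 14 intervals lay within 2-fold and the median was 0.10 (-0.05 to 0.13). Cdkn2b, the inhibitor gene beside Cdkn2a, stood at 25.7, 31.1 and 20.9 CPM in DMD and 17.8 to 46.8 CPM in p16-null DMD (0.30 ± 0.27). Of 19 genes of p53 and its targets, 2 were lower and 1 higher at an unadjusted p under 0.05, and the median was -0.09 (-0.14 to -0.02). These were the growth brake Btg2 (-0.58 ± 0.25), the nuclease gene Aen (-0.59 ± 0.27) and Tp53inp1 (0.74 ± 0.31).

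Cell cycle genes had wide intervals. Of 30 proliferation genes 26 had an estimate above 0, with a median of 0.42 (0.33 to 0.71) that was highest without DMD replicate 3, and 10 intervals lay within 2-fold. One had an unadjusted p under 0.05, Cdc20, an activator of mitotic exit, with 2.53, 1.91 and 2.54 CPM in DMD and 1.78 to 7.47 CPM in p16-null DMD (0.88 ± 0.41, adjusted p = 0.92 by edgeR). The groups overlapped in all 30 genes. Pcna, the clamp of replicating DNA polymerase, was well measured at 0.04 ± 0.13. Genes of a cycle run together in 1 sample, so 26 estimates of the same sign are not 26 observations. Of 20 senescence and lysosome genes, 1 was lower at an unadjusted p under 0.05 (Hmga1, a chromatin protein, -0.65 ± 0.28), 16 intervals lay within 2-fold, and the median was 0.06 (0.02 to 0.15). The lysosomal proteases Ctsb (0.04 ± 0.22) and Ctsd (0.26 ± 0.22) were both bounded within 2-fold.

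The lists of SASP genes had unlike medians. Of 23 secreted cytokines and chemokines, 22 had an estimate below 0, with a median of -0.77 (-0.93 to -0.70). At an unadjusted p under 0.05, 8 were lower, and 4 intervals lay within 2-fold. The list holds Il6, Ccl2 and Ccl7, around which the comparison was built. Its genes can vary together in 1 sample, so 22 estimates of the same sign are not 22 observations. The same limit applies to the lists below. Lists of other kinds also had estimates mostly of 1 sign. Above 0 were 27 of 29 respiration genes, 20 of 20 glycolysis and glycogen genes and 13 of 14 slow fibre genes. Below 0 were 11 of 12 lymphocyte markers and 11 of 11 Schwann cell markers. Without DMD replicate 1, 24 members of the cytokine and chemokine list were tested and 5 passed over all genes by edgeR, all lower. These were Il6, Ccl2, Ccl7, Csf1 and Ccl20, the last of which was not tested with all libraries. Csf1, the macrophage growth factor, stood at 97.4, 151 and 145 CPM in DMD and 68.2 to 102 CPM in p16-null DMD (-0.67 ± 0.16, adjusted p = 0.38 by edgeR), and was at -0.84 without DMD replicate 1 (adjusted p = 0.027). Cxcl12, a chemokine of stem cell niches, was at -0.06 ± 0.17 with an interval from -0.43 to 0.31. Of 30 secreted proteases and growth factors the median was -0.06 (-0.09 to -0.04), 4 were lower and 1 higher at an unadjusted p under 0.05, and 17 intervals lay within 2-fold. Plaur, the urokinase receptor, stood at 14.5, 42.3 and 53.8 CPM against 7.39 to 19.7 CPM (-1.38 ± 0.33), whereas the matrix protease Mmp2 was at -0.05 ± 0.16 and the binding protein Igfbp5 at 0.08 ± 0.22. In Plaur DMD replicate 1 lay inside the p16-null DMD range, and without it the log2 fold change was -1.76 (adjusted p = 0.010 by edgeR), 1 of 2 members that then passed.

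The Il6 and NF-kB response list holds receptor subunits, kinases, Stat3 and feedback genes. Of its 29 tested genes, 25 had an estimate below 0, with a median of -0.26 (-0.38 to -0.17). At an unadjusted p under 0.05, 9 were lower, and 18 intervals lay within 2-fold. With all libraries 0 passed by edgeR, and without DMD replicate 1 there were 4, all lower. Socs3, the feedback inhibitor of Stat3 signalling, stood at 64.1, 488 and 388 CPM in DMD and 36.9 to 171 CPM in p16-null DMD (-1.70 ± 0.48, adjusted p = 0.53 by edgeR), and was at -2.18 without DMD replicate 1 (adjusted p = 0.022). Nfkbiz, a nuclear cofactor of NF-kB, stood at 13.3, 50.2 and 29.7 CPM against 8.03 to 20.5 CPM (-1.38 ± 0.33), and was at -1.74 without DMD replicate 1 (adjusted p = 0.019 by edgeR). In both genes DMD replicate 1 lay inside the p16-null DMD range. The signal receptor Il6st, which encodes gp130, was bounded within 2-fold, at -0.19 ± 0.14. Of 25 immediate early genes, which are switched on within minutes of a stimulus, 21 had an estimate below 0, and 11 were lower at an unadjusted p under 0.05. Their median of -0.58 became -0.89 without DMD replicate 1, where 6 members passed by edgeR, and -0.30 without DMD replicate 2. Myc stood at 40.1, 133 and 104 CPM against 27.4 to 57.0 CPM (-1.19 ± 0.29, adjusted p = 0.38 by edgeR), and was at -1.55 without DMD replicate 1 (adjusted p = 0.0079). Ier5, at 26.4, 37.1 and 39.0 against 18.96 to 25.8 CPM (-0.54 ± 0.15), did not overlap and was at -0.69 without that library (adjusted p = 0.069 by edgeR). Summed over the list, the immediate early genes stood at 919.7, 2451 and 2061 CPM in the DMD libraries by replicate, at 1061 to 1494 in p16-null DMD and at 1439.6 to 1735 in WT, so DMD replicate 1 was the lowest of the 12 libraries. Their part in the results above was not tested.

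The interferon response list had 19 of 20 estimates below 0 (median -0.39) and 3 genes lower at an unadjusted p under 0.05, Ifit3, Ifit2 and Irf1. Ifit3, an antiviral effector gene, stood at 12.2, 19.7 and 47.3 CPM in DMD and 7.11 to 16.7 CPM in p16-null DMD (-1.28 ± 0.32, adjusted p = 0.43 by edgeR), so here DMD replicate 3 stood highest. Without DMD replicate 1, the lowest of the DMD libraries for this gene, it was at -1.62 (adjusted p = 0.025 by edgeR). It did not pass without DMD replicate 2 or without DMD replicate 3. The list's median was 0.01 without DMD replicate 3 and -0.62 without DMD replicate 2. Complement and antigen presentation genes had a median of -0.07 (-0.16 to 0.10) over 20 genes, with C3, the central complement component, at -0.86 ± 0.30 and 16 intervals within 2-fold. The antigen presentation genes B2m (0.00 ± 0.16) and Cd74 (0.00 ± 0.24) were bounded within 2-fold.

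Immune cell markers overlapped between the groups. Summed over 25 genes, macrophage markers stood at 3614 to 5696 CPM in DMD and 2619 to 7447 CPM in p16-null DMD, and 577 to 684 CPM in WT, with 1 marker, Marco, at 0 in all 9 dystrophic libraries. The median over 24 tested was -0.03 (-0.15 to 0.14), and Fcgr2b, an Fc receptor gene, alone had an unadjusted p under 0.05 (-0.64 ± 0.21, adjusted p = 0.71 by edgeR). Lyz2, the lysozyme of macrophages and neutrophils, stood at 1137, 1499 and 1989 CPM in DMD and 729 to 2522 CPM in p16-null DMD (-0.24 ± 0.31). Neutrophil and mast cell markers summed to 117 to 158 CPM in DMD and 73.7 to 224 CPM in p16-null DMD, with a median of -0.26 (-0.24 to -0.15) over 12 tested. Lymphocyte markers summed to 99.1 to 189 and 65.1 to 209 CPM, with a median of -0.54 (-0.77 to -0.30) over 12 tested and 2 intervals within 2-fold. By edgeR 0 genes of the neutrophil, mast cell and lymphocyte lists passed, and none had an unadjusted p under 0.05. The part of these cells in the cytokine values was not tested.

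Of 30 TGF-beta family genes the median was 0.00 (-0.02 to 0.08), and 21 intervals lay within 2-fold, a share close to the 72.1% over all genes. The ligand gene Tgfb1 was at -0.04 (interval -0.58 to 0.50) and the receptor gene Tgfbr2 at 0.06 (-0.22 to 0.34). At an unadjusted p under 0.05, 4 genes were lower, among them Bmp4, a BMP ligand, with 14.7, 28.2 and 21.1 CPM in DMD against 11.04 to 14.2 CPM in groups that did not overlap (-0.75 ± 0.18), and Thbs1, an activator of latent TGF-beta, with 151, 498 and 546 against 109 to 226 CPM (-1.20 ± 0.32). Their adjusted p by edgeR was 0.38 and 0.48 with all libraries, and 0.022 and 0.010 without DMD replicate 1, at -0.95 and -1.59. Of 30 scar matrix genes, 22 intervals lay within 2-fold, again close to the share over all genes, and the median was 0.11 (0.03 to 0.25). Fap, a protease of activated fibroblasts (0.53 ± 0.20), and Tnn, a tenascin (0.77 ± 0.29), were higher at an unadjusted p under 0.05. Col1a1 stood at 2735, 1299 and 2085 CPM in DMD and 1408 to 5235 CPM in p16-null DMD (0.47 ± 0.35, interval -0.27 to 1.20), so a rise of 2-fold is not excluded. Of 19 fibroblast and fibro-adipogenic progenitor genes, the median was -0.03 (-0.13 to 0.05) and 10 estimates were below 0. The groups did not overlap in 4 of them, 3 lower and 1 higher, where over all genes the shares were 0.878% and 1.18%. Cd248, a stromal surface protein, stood at 94.7, 98.1 and 89.6 CPM in DMD against 59.6 to 84.95 CPM (-0.44 ± 0.14, adjusted p = 0.66 by edgeR), and Ly6c at 21.5, 19.5 and 27.3 against 11.4 to 19.3 CPM (-0.71 ± 0.18). Osr2, a zinc finger factor of connective tissue development, was the higher one, at 2.68, 1.91 and 1.14 CPM in DMD against 3.33 to 5.05 CPM (1.06 ± 0.35, adjusted p = 0.72 by edgeR).

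Of 24 satellite cell and myogenic factor genes the median was 0.25 (0.18 to 0.29), and 13 intervals lay within 2-fold. Pax7, the satellite cell factor, was at 0.69 ± 0.38 with an interval from -0.13 to 1.51, and the muscle factor Myf6 at 0.32 ± 0.26. Sdc4, a heparan sulfate proteoglycan of satellite cells and other cells, stood at 59.0, 164 and 149 CPM in DMD and 32.6 to 95.4 CPM in p16-null DMD (-1.11 ± 0.29, adjusted p = 0.48 by edgeR), and was at -1.45 without DMD replicate 1 (adjusted p = 0.022). Embryonic and regenerating fibre genes had a median of 0.18 over 17, which was 0.55 without DMD replicate 2 and 0.02 without DMD replicate 3, with Mybph at 0.65 ± 0.25 and the cardiac actin gene Actc1, which regenerating fibres express, at 0.56 ± 0.26. The 15 fast fibre genes had a median of 0.10 (-0.02 to 0.26) and 12 intervals within 2-fold, and the 18 genes of the dystrophin complex a median of 0.13 (0.05 to 0.22) and 16 within 2-fold. Over 14 slow fibre genes the median was 0.37, which was 0.57 without DMD replicate 2 and 0.18 without DMD replicate 3. Myl3, a slow myosin light chain, stood at 179, 75.7 and 34.2 CPM in DMD and 96.8 to 388 CPM in p16-null DMD (1.298 ± 0.53, interval 0.18 to 2.42, adjusted p = 0.84 by edgeR). Red blood cell genes, of which 3 were tested, had a median of 1.002 (0.79 to 1.41) and a sum of 157 to 297 CPM in DMD and 241 to 438 CPM in p16-null DMD, and the part of blood in these values was not tested.

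**Figure D5:**
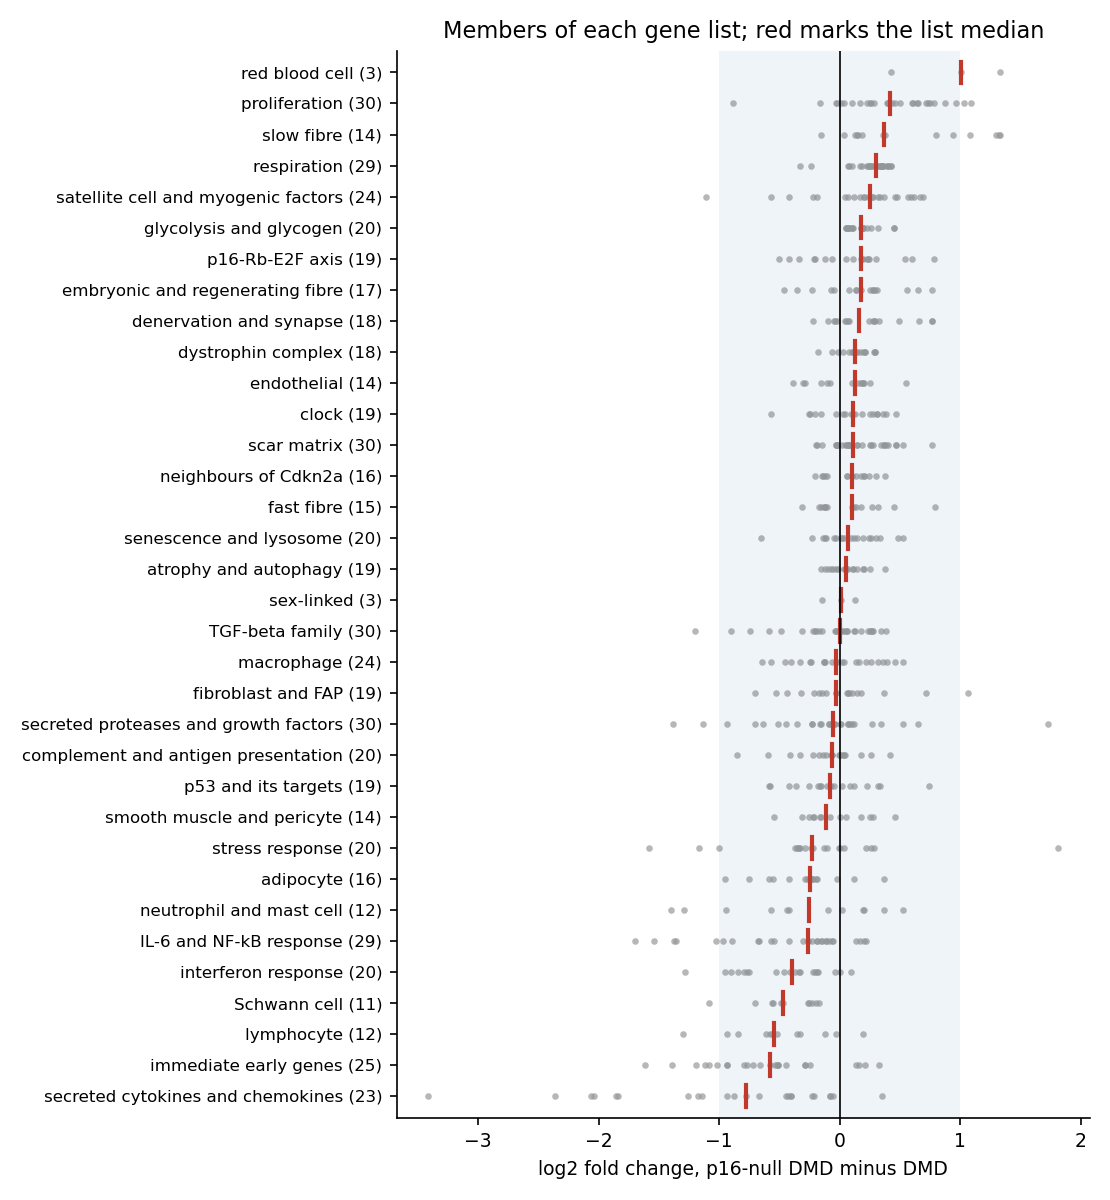
Log2 fold change of p16-null DMD over DMD for each tested member of the 34 gene lists (grey points, number tested in brackets) with the list median in red. Shading spans 2-fold either way. List medians run from -0.77 for secreted cytokines and chemokines to 1.002 for the 3 red blood cell genes, and 0.02 is the median of all genes.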

How the data were processed

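RNA-seq tables of 18 rat libraries were used. The submitters' processing notes name Trimmomatic, FastQC, STAR 2.7.10b, RSEM 1.3.3 and the build mRatBN7.2, while an annotation release or strand setting is not given in the sources used here. The deposited values are expected counts (estimated counts per gene, 4.50% not whole), rounded here, and TPM values, also as deposited, which were used in alternatives alone. The 12 libraries of 9 months were fitted together with edgeR 4.0.16 in R 4.3.3 (filterByExpr with a minimum count of 10, TMM scaling, quasi-likelihood test, Benjamini-Hochberg adjustment at 0.05). The SE is the size of edgeR's log2 fold change before shrinkage over the square root of its F statistic. Where that value was not usable, the printed fold change was taken. Fold changes and interval centres are printed after shrinkage, so an interval and its p need not match exactly. Intervals are at 95%. No interval is adjusted for the number of genes, and each assumes that the spread of a gene is the same in all groups. The steps were tested on simulated data. Replicates differed beyond counting error (chi-square per degree of freedom 15.7 to 84.7), so none were merged. The labels name no batch.

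The comparison, its 34 gene lists and its tests were chosen with earlier results of these data known. Named genes are Dmd, Cdkn2a, Il6, Ccl2 and Ccl7, any gene that passed, the 8 smallest p in each direction at a mean log2 CPM of at least 1, the 10 smallest adjusted p without DMD replicate 1, the 5 largest SDs in each group at a mean log2 CPM of at least 2, the 5 smallest SEs, and from each list up to 3 members with the smallest p and 2 with the highest level. Others, such as Col6a4, Bmp7, Cdk4, Rb1, Tgfb1, Ptx3, Nr4a3, and Adamts4, were named after their values were seen. Of 714 list symbols, 44 had no entry. Alternatives were RLE and library-total scaling, 2 other filters, DESeq2 1.42.0, limma 3.58.1 (voom, voom with library weights, log2 TPM), a robust fit, fits of other library sets, a replicate block and each library left out.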

Additional observations from a re-analysis of the deposited data

Results flagged for a closer look

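For 192 named genes and 6 measures per library, the 6 p16-null DMD libraries were searched for a value whose gap to its nearest neighbour exceeded 0.625 of the whole range, which chance gives in about 1 of 20 such groups. There were 6 such values, no more than that rate gives over this many genes and measures. AC239701.1 had its single count in replicate 4 (0.0455 CPM, 0 in the others), a gap that fills the range by construction. Procr, a receptor of activated protein C, was low in replicate 1 (11.6 CPM, 18.3 to 20.4 in the others), and Tp53inp1, a p53 target, in replicate 6 (4.36 CPM against 8.24 to 11.2). Mef2c, a muscle transcription factor, was high in replicate 3 (286 CPM against 174 to 208), and the Y-linked gene Kdm5d in replicate 2 (27.5 CPM against 16.1 to 18.99). Replicate 4 was also the deepest library, with 21.99 M counts against 10.8 M to 14.4 M.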

How the results depend on the processing

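The count of 1 gene became 13 by DESeq2, with 2299 genes left without an adjusted p, 2 by limma-voom, 2 by limma-voom with library weights, and 1 to 85 with a library left out: 85 without DMD replicate 1, 2 without p16-null DMD replicate 2 and likewise 2 without DMD replicate 3. The numbers shared by 3 pairs of libraries do not pair them (correlations of -0.207 to 0.00482). With a replicate block 0 genes passed by edgeR, AC239701.1 standing at -9.72. The contrast of that fit rests on the DMD libraries and p16-null DMD replicates 1 to 3, since replicates 4 to 6 are alone at their numbers. Genes bounded within 2-fold numbered 8984 at 99% intervals and up to 13232 on log2(TPM + 1). Among genes with a mean log2 CPM of at least 5, the median difference between libraries was 0.256 in DMD, 0.222 in p16-null DMD and 0.187 in WT. Over all 14801 genes tested it was 0.293 in WT on log2 CPM and 0.235 in WT on log2(TPM + 1). The difference in total counts moved between -1.60 M and 1.59 M with a library left out. Of 4791 values of 192 named genes under 25 alternatives, 4622 kept their direction and side of the threshold, 0 called values reversed, and 38 genes that did not pass changed sign, at sizes up to 0.60. The causes were not tested.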

Other observations

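Metabolic genes of the muscle fibre were tightly bounded. All 29 respiration genes tested had a 95% interval within 2-fold, with a median log2 fold change of 0.30 for p16-null DMD over DMD (0.19 to 0.47 with each DMD library left out in turn), and Ndufa9, a subunit of complex I, was at 0.43 ± 0.16 (adjusted p = 0.82 by edgeR). Glycolysis and glycogen genes had a median of 0.18 (0.06 to 0.24) over 20 genes and 18 intervals within 2-fold, atrophy and autophagy genes 0.05 (0.02 to 0.08) over 19 and 18, and clock genes 0.11 (0.07 to 0.16) over 19 and 18. Of the clock genes the output factors Nfil3 (-0.57 ± 0.20) and Dbp (0.47 ± 0.21) had the smallest p. Denervation and synapse genes had a median of 0.16 (0.11 to 0.34) over 18, with the synapse kinase gene Musk at 0.77 ± 0.39. The stress response list had a median of -0.23 (-0.21 to -0.18) over 20. In it Chac1, a glutathione-degrading enzyme, stood at 2.99, 2.81 and 1.87 CPM in DMD and 4.63 to 17.2 CPM in p16-null DMD, groups that did not overlap (1.81 ± 0.62, adjusted p = 0.76 by edgeR), and Hmox1, the haem-degrading enzyme, was at -0.999 ± 0.37.

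Fat and nerve markers varied by library. The summed adipocyte markers stood at 2719 to 2921 CPM in the DMD libraries and at 1146 to 4064 CPM in p16-null DMD (median log2 fold change -0.25 over 16 genes, -0.26 to -0.24 with each DMD library left out). Cfd, the adipose complement factor adipsin, stood at 646, 725 and 681 CPM in DMD and 129.995 to 920.2 CPM in p16-null DMD. Schwann cell markers summed to 593, 282 and 245 CPM in DMD replicates 1 to 3 and 159 to 408 CPM in p16-null DMD. The median of the 11 genes went from -0.47 with all libraries to 0.70 without DMD replicate 1. Endothelial genes had a median of 0.13 (-0.0006 to 0.21) over 14, smooth muscle and pericyte genes -0.12 (-0.19 to -0.04) over 14, and the 3 sex-linked genes tested 0.01 (-0.09 to 0.11).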
